A study of Drosophila melanogaster with 2 samples.

Results

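The weak peaks of mod(mdg4) that both replicates hold, although the authors' thresholded list does not, numbered 2130 of the 29999 peaks in the pooled list and made up 7.11% of its 29973 peaks on the chromosome arms. They were chosen by measured signal. The pooled list was sorted by signal, and the rank range began directly after as many peaks as the thresholded list holds and was as long as that list. An arm peak of this range was kept as a shared weak peak if it overlapped no thresholded peak and if, by at least 1 bp, it overlapped a peak within the range's upper rank bound in the list of each replicate. The 3555 weak arm peaks of the same range that failed the replicate condition are called unshared here, and the 6273 arm peaks of the authors' list are called thresholded.

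The peaks come from chromatin immunoprecipitation with sequencing in whole animals of Drosophila melanogaster, collected as wandering larvae in the third instar, of both sexes together and of unknown age. The animals belonged to 1 transgenic line that stably expresses mod(mdg4) with GFP at its C-terminal end, inserted as a transgene aimed at mod(mdg4), and an antibody against GFP was used for the precipitation. The 2 biological replicates, which the labels number 3 and 4, form a single group, and there was no other genotype, treatment or stage. Only tagged protein was measured, all tissues were mixed, and the control library was not analysed here. The lists give a signal for each peak and no read counts, so the depth is unknown.

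The protein mod(mdg4) has a BTB domain and many isoforms made by trans-splicing. With su(Hw) and CP190 it forms a complex at insulators, which bound regulatory domains of chromosomes, and other isoforms act in chromatin and in male meiosis. It is recruited to many sites by DNA-binding proteins. Of these, su(Hw) and CTCF bind long sites with zinc fingers, and BEAF-32, DREF and M1BP bind short elements near housekeeping promoters. GAGA factor, encoded by Trl, binds GA repeats at promoters and Polycomb elements.

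The few shared weak peaks with a su(Hw) site are shown first because this site was found more often at their summits than at neighbouring positions. Capitals mark the match, 24 bases are shown on each side, the gene is the one with the nearest protein-coding start, and sequences are read from RefSeq's genome of Release 6, the same assembly as dm6, counted from 1. All sequences shown lie outside annotated untranslated regions.
CG10013, chr3R:12321439-12321498, plus strand: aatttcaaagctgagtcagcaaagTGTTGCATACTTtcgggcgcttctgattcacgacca
Reg-2, chr3L:618428-618487, minus strand: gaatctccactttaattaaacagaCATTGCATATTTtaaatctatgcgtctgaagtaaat
CG6330, chr3R:26957438-26957497, plus strand: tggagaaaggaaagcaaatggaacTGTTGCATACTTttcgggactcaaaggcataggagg
CG43210, chr3R:18566976-18567035, plus strand: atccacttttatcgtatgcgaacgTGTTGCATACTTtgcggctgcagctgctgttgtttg
The peaks near CG10013, CG6330 and CG43210 hold the same letters in the match and differ around it. The pooled signals of the peaks near CG10013, Reg-2, CG6330 and CG43210 were 109.6, 109.5, 100.5 and 100.2. The site near Reg-2 lies 56 bp from the summit and that near CG10013 7 bp.

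Promoter elements form the next set. The DRE and Motif 1 are shown because most of their matches lay at shared weak peaks near start sites, and the GAGA repeat because it was found in a larger share of those than of the distal ones. The DREF element DRE, TATCGATA, is given for exd, a homeodomain cofactor of Hox proteins, for Wdr82, a subunit of the Set1 histone methyltransferase complex, and for sov, a protein of heterochromatin. Motif 1, GGTCACACT, the element that M1BP binds, follows for CG9855, CG33095 and CG7328, and a GAGA repeat, GAGAGAG, for Oatp33Ea, a transporter of organic anions.
exd, chrX:15992306-15992361, plus strand: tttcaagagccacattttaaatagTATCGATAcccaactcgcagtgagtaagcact
Wdr82, chr2L:8374403-8374458, plus strand: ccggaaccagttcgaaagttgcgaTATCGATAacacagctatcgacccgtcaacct
sov, chrX:6756257-6756312, plus strand: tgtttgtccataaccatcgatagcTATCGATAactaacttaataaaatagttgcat
CG9855, chr3R:4397914-4397970, plus strand: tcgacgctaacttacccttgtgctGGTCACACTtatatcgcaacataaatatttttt
CG33095, chr3R:25097594-25097650, plus strand: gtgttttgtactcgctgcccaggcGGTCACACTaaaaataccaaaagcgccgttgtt
CG7328, chr3L:20140956-20141012, minus strand: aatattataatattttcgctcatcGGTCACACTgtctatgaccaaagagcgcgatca
Oatp33Ea, chr2L:12446008-12446062, minus strand: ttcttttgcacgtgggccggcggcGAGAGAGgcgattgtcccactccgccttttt
The DRE of exd lies 10 bp upstream of the summit in genome coordinates, and the peak spans chrX:15992135-15992550 with its summit 125 bp from the start of exd. At sov the summit was 13 bp from a start site. The DRE contains the BEAF-32 element CGATA, so a match to the first is always a match to the second.

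The CTCF core AGGNGGCGC and the AP-1 element TGANTCA are shown because the first was less frequent and the second more frequent here than at thresholded peaks. CadN encodes N-cadherin, and for encodes a cGMP-dependent protein kinase.
CadN, chr2L:17784775-17784831, plus strand: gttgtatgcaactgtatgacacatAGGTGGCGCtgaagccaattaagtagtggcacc
CG18480, chr2L:15643995-15644051, plus strand: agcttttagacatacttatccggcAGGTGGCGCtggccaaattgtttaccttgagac
CG11449, chr3L:22444662-22444716, plus strand: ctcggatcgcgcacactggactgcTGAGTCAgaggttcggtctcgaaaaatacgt
for, chr2L:3647715-3647769, plus strand: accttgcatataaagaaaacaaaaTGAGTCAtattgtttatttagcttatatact
The CTCF core of CG18480 lies 7 bp from the summit of its peak, and that summit is 13933 bp from the nearest start. The AP-1 match in the intron of for lies 62 bp from the summit.

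The signal of these peaks is a description, since it chose them. It is the authors' signal value for each peak. Its formula was not stated, so values are compared by size only within a list. Pooled signals ran from 66.3 to 113.2 with a median of 94.6, against a median of 77.5 for unshared weak peaks and 185.6 for thresholded peaks. Replicate 3 gave a median of 56.9 with a range of 43.5 to 279, and replicate 4 a median of 42.4 with a range of 31.9 to 247. The authors' -log10 q was between 0.663 and 1.31. In the upper part of the rank range lay 77.1% of the shared and 33.0% of the unshared weak peaks, so the shared ones are on the whole the stronger of the weak peaks.

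The weak part of the range held 5685 peaks after removal of those that overlap a thresholded peak. Both replicates held 2130 of them, or 37.5%. Replicate 3 alone held 1812, replicate 4 alone 1360 and neither 383. The unshared peaks were rarely missing from the replicates altogether, since 87.1% of them overlapped a peak of any rank in both full lists. After scaling to the medians of the replicates, 98.6% of the shared weak peaks differed by less than 2-fold between replicates, with an SD of 0.42 for the log2 of the ratio. Since both replicate signals had to pass a bound to enter, this closeness is partly set by the choice and is no measure of how well the replicates agree. Of the 29 peaks further apart, 21 were higher in replicate 4 and 8 in replicate 3.

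The rank bounds fell within a continuous run of signals. The strongest shared weak peak, 1279 bp from CG31601, had a pooled signal of 113.194, and the peak just above the range, near EcR, had 113.216. At the lower end, the peak 377 bp from CG15771 had 66.2551, and the nearest peak below the range that met the other conditions, near Yeti, had 66.1242. In replicate 3 the weakest accepted signal was 43.534, and a peak near Strica failed with 43.5135. In replicate 4 the weakest accepted signal was 31.9189, and a peak near CG43675 failed with 31.9187.

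An overlap of 1 bp did not always mean that the replicates had the same summit. The median distance from the pooled summit to that of the matched replicate peak was 25 bp in replicate 3 and 37 bp in replicate 4. When the replicate peak with the nearest summit was taken instead, and was required to lie within 100 bp and within the rank bound, 1296 of the 2130 peaks, or 60.8%, met the condition in both replicates. Intervals also overlapped each other: 800 shared weak peaks, or 37.6%, overlapped another peak of the pooled list, and 338 overlapped another shared weak peak. In replicate 3 the matched peak also overlapped a thresholded peak for 30 of them, and in replicate 4 for 14.

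The peaks with the best ranks in the replicates show this. The peak at chr3L:3368427-3368842, 921 bp from Drs, which encodes the antifungal peptide drosomycin, had a pooled signal of 80.1 but overlapped peaks of 279 in replicate 3 and 247 in replicate 4. Both had their summits to one side, 208 and 207 bp away. The replicate peaks that shared its summit, within 4 and 3 bp, had signals of 40.5 and 38.1. In each replicate list 2 peaks overlapped this interval. In the pooled list 1 peak, the shared weak one, overlapped this interval or those of the matched replicate peaks.

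The peak 328 bp from Sumo, which encodes the ubiquitin-like modifier, had 94.6 in the pooled list and was matched to 130.9 and 117.9 in replicates 3 and 4, with summits 236 and 243 bp away. The peak in an intron of Men, the malic enzyme, was matched to 112.5 and 90.6, while the peaks at its own summit had 60.2 and 25.5. Near Jwa, in the 3′ UTR of Faf2, the signals were 96.5 in the pooled list, 101.0 in replicate 3 and 190.4 in replicate 4, with summits 23 and 154 bp away. Of the 10 peaks with the smallest sum of replicate ranks, only 1 of a pair near muc and the peak near CG7328 had a replicate peak within 100 bp and within the bound in both replicates. That pair near muc, a subunit of pyruvate dehydrogenase, overlapped itself, with pooled signals of 112.2 and 85.5, and was matched to the same replicate peaks of 90.1 and 101.3.

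**Figure D1:**
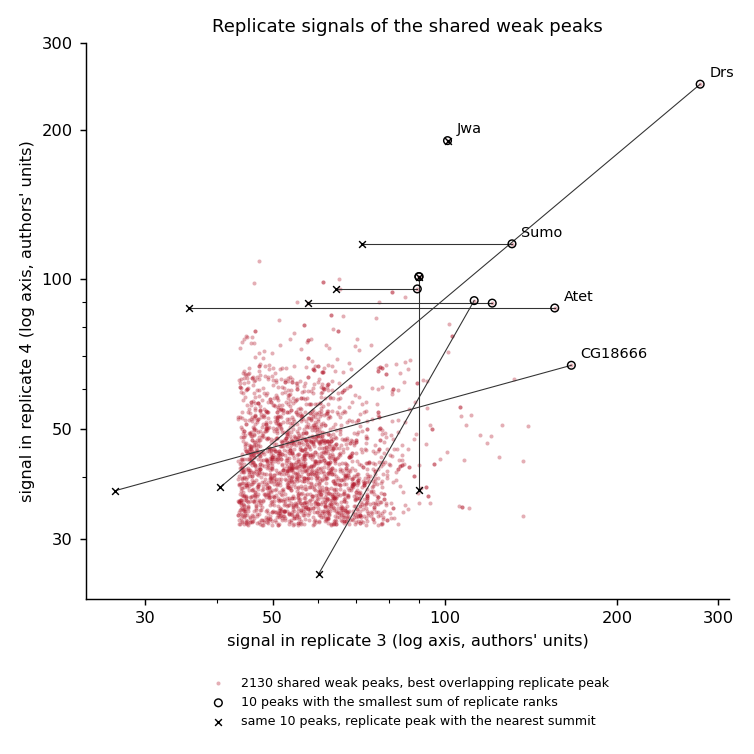
Signal of each shared weak peak in replicate 3 (horizontal, log axis) and replicate 4 (vertical, log axis), in the units of each list. Circles mark the 10 peaks with the smallest sum of replicate ranks, crosses give the replicate peaks with the nearest summit for the same 10, and lines join them: the peak near Drs falls from 279 and 247 to 40.5 and 38.1.

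Most shared weak peaks, like most thresholded ones, had summits more than 500 bp from a protein-coding start. The share of the genome this close to a start was not computed, so avoidance of promoters is not shown. Peaks with a summit at most 500 bp from a protein-coding start are called promoter peaks, and 545 shared weak peaks, or 25.6%, were of this kind, against 42.0% of thresholded peaks. The difference was -16.5 percentage points, with a 95% interval of -18.6 to -14.2 (two-sided Fisher exact test over peaks, p = 3.97e-43). Only 166 shared weak peaks lay within 100 bp of a start, and the median distance was 1686 bp. These p-values and intervals cover the number of peaks, not differences between animals, and overlapping peaks are not independent.

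The unshared weak peaks were nearer to the shared ones. Of them 21.9% were promoter peaks, which is 3.67 points less, with an interval of 1.39 to 5.99 (two-sided Fisher exact test, p = 0.00166). This difference depended on strength and on how peaks were matched. In the lower part of the rank range it was 4.54 points (Fisher exact test, p = 0.0270) and among peaks that overlap no other 2.83 points (Fisher exact test, p = 0.0484). Within the upper part of the range, however, it was -0.0735 points (exact p = 0.965), and with summits required within 100 bp it was 0.22 points (p = 0.881). It was also decided by 1 replicate: without replicate 4 it became -2.16 points (exact p = 0.0769), and without replicate 3 it was 8.25 points (p = 4.72e-13).

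Along the pooled list the promoter share fell with rank. It was 46.6% in the stronger part of the thresholded peaks and 37.4% in the weaker part. The shared weak peaks followed with 25.6%, the unshared with 21.9% and the rest of the list with 13.1%. The exact 95% intervals of the shared weak peaks, 23.7 to 27.5%, and of the weaker thresholded peaks, 35.7 to 39.1%, did not overlap.

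**Figure D2:**
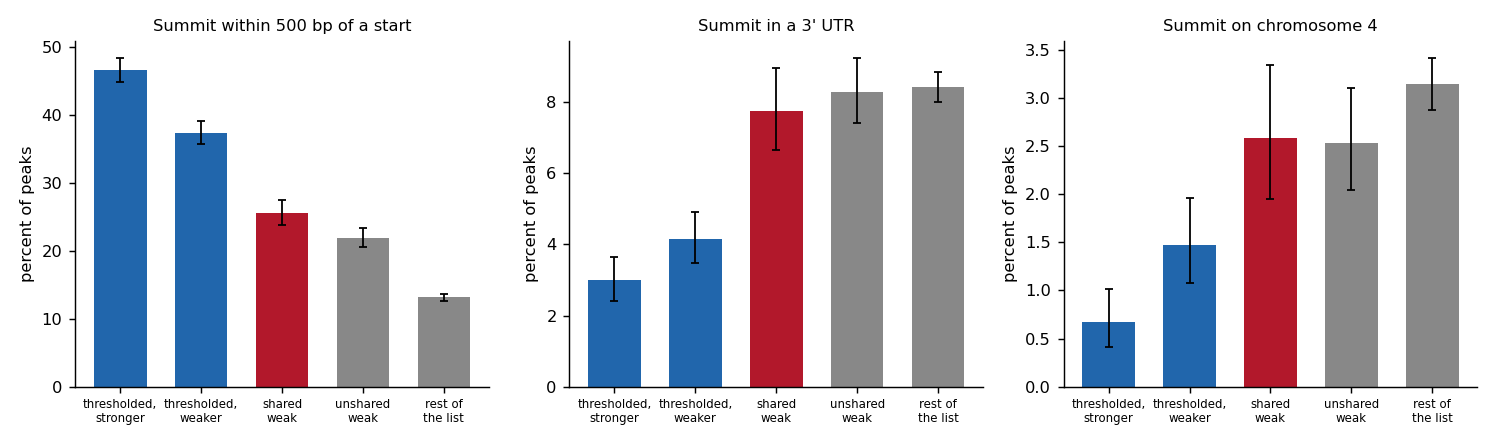
Percent of peaks (vertical axes, from 0) with the summit within 500 bp of a protein-coding start, in a 3′ UTR or on chromosome 4, for 5 classes of the pooled list in order of signal, with exact 95% binomial intervals. The shared weak peaks (red) have 25.6%, 7.75% and 2.58%, and sit nearer to the unshared weak peaks than to either part of the thresholded list.

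Inside genes the summits were mainly intronic. Introns held 55.9% of the shared weak peaks, the space between genes 575 of the 2130, 3′ UTRs 7.75%, 5′ UTRs 5.63%, noncoding exons 2.63% and coding exons 1.08%. Against unshared weak peaks none of the 6 classes passed the two-sided Fisher exact test after Benjamini-Hochberg adjustment (all adjusted p = 0.783), and none had an unadjusted p under 0.05. Against thresholded peaks, a comparison added after the values were seen, 5 of 6 classes passed.

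3′ UTRs held 7.75% of shared weak and 3.57% of thresholded summits, a difference of 4.18 points with an interval of 3.01 to 5.46 (adjusted exact p = 1.82e-13). Introns were higher by 7.88 points (adjusted exact p = 7.00e-10), and the space between genes held 38.0% of thresholded peaks, a difference of -10.98 points (adjusted p = 9.43e-20). The 5′ UTR share was lower, at 5.63% against 7.30% (adjusted exact p = 0.0129), and the coding exon share higher, at 1.08% against 0.574% (adjusted p = 0.0277). The coding exon call was lost in 7 alternatives, among them without replicate 3 (exact test, adjusted p = 0.0517) and with summits within 100 bp (0.294), and the 5′ UTR call in the lower part of the range (0.629). With the strictest replicate bound, which takes from each replicate list only as many top peaks as the thresholded list holds and leaves 59 shared weak peaks, none of the 5 passed (exact test, lowest adjusted p = 0.244), and the differences for introns and for the space between genes turned to -12.4 and 11.2 points. The strongest peaks in a 3′ UTR, named after their values were seen, lay in pira with 112.8, in CG30108 with 112.8 and in chm, a histone acetyltransferase, with 112.2 in the pooled list. A start site of another gene was close to those in pira and CG30108, 81 and 85 bp away.

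The shared weak peaks were spread among the thresholded ones. The median distance to a thresholded summit was 2870 bp, and 64.5% lay within 5 kb of one, against 61.3% of unshared weak peaks. The difference of 3.18 points passed the test (two-sided Fisher exact test, p = 0.0174) but not in the upper part of the rank range, at -0.30 points, or with summits within 100 bp, at -1.32 points. Without replicate 4 it was -1.27 points. Neighbouring shared weak peaks were a median of 23796.5 bp apart, and 316 neighbouring pairs were closer than 2 kb. These pairs include overlapping intervals, since 338 shared weak peaks overlapped another one. Summits in annotated transposable elements were few, 10 of 2130 or 0.469%, against 0.985% of unshared and 0.383% of thresholded peaks. Within 500 bp of a tRNA gene's start lay 22, or 1.03%, against 0.731% and 1.18%.

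Chromosome 4, the small chromosome that is rich in heterochromatin and has genes with unusual chromatin, carried weak peaks densely. It held 55 shared weak peaks, or 40.8 per Mb, where the other arms held 13.7 to 18.4 per Mb. Unshared weak peaks had 66.8 per Mb there and 23.5 to 28.9 elsewhere. Thresholded peaks had 49.7 per Mb on chromosome 4, close to the 44.7 to 49.5 of the other arms. As a share, chromosome 4 held 2.58% of shared weak and 1.07% of thresholded peaks (two-sided Fisher exact test, adjusted p = 1.54e-05, added after the values were seen). Its share of unshared weak peaks was 2.53% (adjusted exact p = 0.971), a difference of 0.05 points with an interval of -0.77 to 0.95.

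The share on chromosome 4 rose from 0.667% in the stronger part of the thresholded list to 1.47% in the weaker part and 3.14% in the rest of the pooled list. Pooled signals of the 55 peaks ran from 67.6 to 112.5, with a median of 86.4. Of these peaks 28 were intronic, and 19 were promoter peaks. The strongest, named after their values were seen, lay 392 bp from Dyrk3, a protein kinase, with 112.5, 24 bp from 4E-T, which binds the cap-binding protein eIF4E, with 112.4, and 1659 bp from Sox102F, an HMG-box transcription factor, with 111.6. In replicates 3 and 4 their signals were 66.4 and 45.5, 76.3 and 66.3, and 55.3 and 89.8. With the strictest replicate bound, which leaves 59 peaks, the adjusted p was 0.130, and under the other alternatives it was at most 0.0485.

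**Figure D3:**
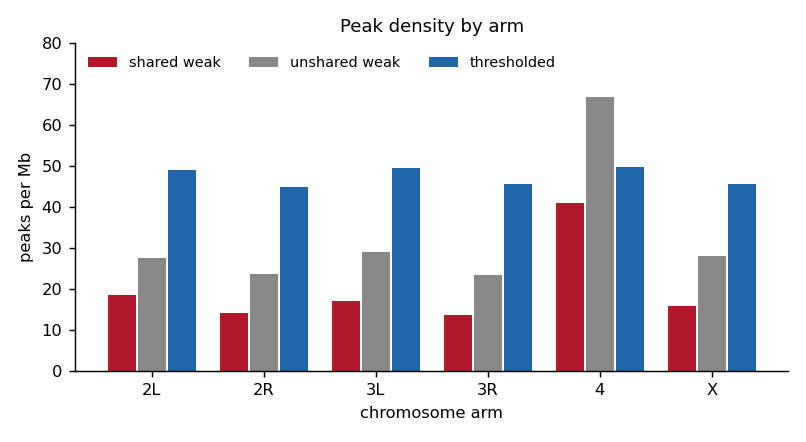
Peaks per Mb (vertical axis, from 0) on each chromosome arm for shared weak, unshared weak and thresholded peaks. On chromosome 4 the shared weak peaks reach 40.8 per Mb against 13.7 to 18.4 on the other arms, while the thresholded peaks are at 49.7 against 44.7 to 49.5.

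The X held 17.5% of shared weak peaks, 18.5% of unshared and 17.1% of thresholded ones. Neither difference passed the two-sided Fisher exact test (p = 0.320, interval of -3.11 to 1.01 points, and p = 0.715, interval of -1.46 to 2.26 points). Without replicate 3 the difference from unshared peaks was -2.74 points (exact p = 0.00984), and without replicate 4 that from thresholded peaks was 1.67 points (p = 0.0333). Arm 3R held 20.6% of shared weak and 23.3% of thresholded peaks (adjusted exact p = 0.0299). The call on 3R was lost in 6 alternatives, among them summits within 100 bp (exact test, adjusted p = 0.253) and the weaker thresholded peaks alone (0.126). No arm differed from the unshared peaks after adjustment, while 1 of 6, 2L, had an unadjusted p under 0.05, at 0.0427.

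Windows of 201 bp around the summits were searched on both strands for 16 motifs and compared with paired windows centred 1000 bp away. The side of each paired window was drawn at random once, and how the calls vary with the draw was not tested. The su(Hw) site, given by name, was found in 22 windows, or 1.03%, and in 8 paired windows, or 0.376% (two-sided exact McNemar test, adjusted p = 0.0334). Its matches had a median distance of 30 bp from the summit, and 77.3% lay within 50 bp. The DRE was found in 26 against 10 windows, 1.22% against 0.469% (adjusted exact p = 0.0334). GAGAGAG was found in 4.93% against 3.10% (adjusted exact p = 0.0126).

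AT-rich strings were also more frequent at the summits. A run of 8 A was found in 20.7% of summit windows and 13.8% of paired windows (adjusted exact p = 4.02e-08), and the TATA box CTATAAA or GTATAAA in 12.2% and 9.01% (adjusted p = 0.00488). The Pho core GCCATT was less frequent, in 9.72% and 13.3% (adjusted exact p = 0.00263). The windows differed in base composition, with a median G+C of 35.8% at the summits and 41.3% in the paired windows. Read backwards, the TATA box was found in 17.5% and 14.5% and the DRE in 0.751% and 0.376%. The Pho core read backwards was found in 4.18% and 3.85%, and the su(Hw) site in 0.141% and 0%. Runs of A and GAGAGAG read nearly the same backwards and have no such control. The part of base composition in these results was not tested. All 6 calls were lost in the lower part of the rank range and with the strictest replicate bound, where fewer peaks were tested.

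Other alternatives ended some of these calls in the exact McNemar test. The su(Hw) site did not pass with summits within 100 bp (exact test, adjusted p = 0.238), in windows of 150 bp to each side (0.260) or in the upper part of the range (0.120). The DRE did not pass with 50% overlap (exact test, adjusted p = 0.157), in windows of 50 bp to each side (0.374), with the control 2000 bp away (0.0537) or in the upper part (0.0766). GAGAGAG did not pass without peaks that overlap another (exact test, adjusted p = 0.523), with 50% overlap (0.158), with the control 2000 bp away (0.0537) or in the upper part (0.109). The TATA box did not pass with summits within 100 bp (exact test, adjusted p = 0.248), nor the Pho core in windows of 50 bp (0.0652).

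The other 10 motifs did not pass after adjustment. The su(Hw) core TGCATA, contained in the su(Hw) site, was found in 320 and 270 windows, and CGATA in 25.4% and 22.5% (adjusted exact p = 0.0535 for each). Both passed with either replicate left out (exact test, adjusted p from 0.00747 to 0.0140) and in windows of 150 bp to each side (0.0376 and 0.0128), the su(Hw) core also with the control 2000 bp away (0.0119) and CGATA in windows of 50 bp (0.0177). Read backwards, the su(Hw) core was also more frequent at the summits, with 7.32% and 4.41%, while CGATA had 23.3% and 23.7%. The CTCF core was found in 11 summit windows, or 0.516%, and 14 paired windows, or 0.657% (adjusted exact p = 0.789). Motif 1 was found in 13 and 6 windows (adjusted exact p = 0.267), Motif 6, given by name, in 13 and 7 (adjusted p = 0.324), and TGANTCA in 5.54% and 4.69% (adjusted p = 0.324). The initiator TCAGTT had 14.3% and 12.3%, the E-box CACGTG 2.02% and 2.16%, the Zelda site CAGGTAG 0.892% and 0.986%, and a repeat of CA units 5.54% and 4.74%.

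No difference in these motifs between shared and unshared weak peaks passed the test. The 16 motifs gave 0 calls (two-sided Fisher exact tests, lowest adjusted p = 0.950), and none had an unadjusted p under 0.05. The su(Hw) site was at 1.03% and 0.985%, with an interval of the difference from -0.47 to 0.64 points. The DRE was at 1.22% and 1.15%, with an interval of -0.49 to 0.71 points. GAGAGAG was at 4.93% and 4.19%, with an interval of -0.36 to 1.91 points.

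Against thresholded peaks 8 of 16 motifs passed. The su(Hw) site was at 1.03% against 3.06%, a difference of -2.03 points (two-sided Fisher exact test, adjusted p = 6.39e-07). The CTCF core was at 0.516% against 1.55% (adjusted exact p = 0.000332), and the DRE at 1.22% against 3.11% (adjusted p = 4.84e-06). Motif 1 was at 0.610% against 1.72% and GAGAGAG at 4.93% against 7.38% (adjusted exact p = 0.000263 for each), and CGATA at 25.4% against 28.7% (adjusted p = 0.00727).

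A run of 8 A and TGANTCA, in contrast, were more frequent in the shared weak peaks. The run was at 20.7% against 16.7% (adjusted exact p = 0.000158), and TGANTCA at 5.54% against 3.97% (adjusted p = 0.00600). Median G+C was close in these classes, at 35.8% and 36.3%. The call on TGANTCA was lost among distal peaks (Fisher exact test, adjusted p = 0.0663) and in the lower part of the range (0.260). In windows of 50 bp to each side it was lost as well (exact test, adjusted p = 0.258). There the calls on the CTCF core (0.0512), Motif 1 (0.0512), CGATA (0.106) and GAGAGAG (0.258) were also lost. Set against only the weaker part of the thresholded list, 4 of 16 motifs passed, the DRE, Motif 1, GAGAGAG and, lower in the shared weak peaks, the repeat of CA units. There the su(Hw) site had 1.38%, a difference of -0.34 points (adjusted exact p = 0.551), and the differences in the CTCF core, the BEAF-32 element, the AP-1 element and runs of A did not pass either.

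**Figure D4:**
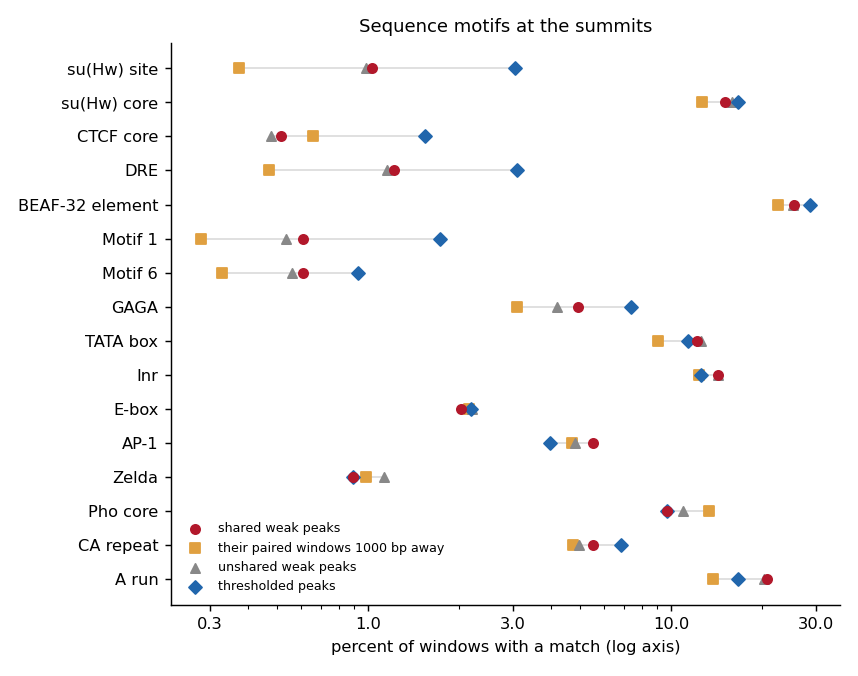
Percent of 201 bp windows with a match to each of 16 motifs (horizontal, log axis) at the summits of shared weak peaks, in their paired windows 1000 bp away, at unshared weak peaks and at thresholded peaks. The su(Hw) site stands at 1.03%, 0.376%, 0.985% and 3.06% in these classes, and the DRE at 1.22%, 0.469%, 1.15% and 3.11%.

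Some motifs differed between promoter and distal shared weak peaks, in a comparison added after the values were seen. The DRE and Motif 1 are promoter elements, and the split was not particular to the shared weak peaks. At the 545 promoter peaks the DRE was found in 20 windows, or 3.67%, and in 6 of 1585 distal windows, or 0.379% (two-sided Fisher exact test, adjusted p = 4.05e-07). Motif 1 was found in 13 promoter windows, or 2.39%, and in 0 of 1585 distal windows (adjusted exact p = 2.89e-07). CGATA was found in 177 promoter and 365 distal windows, and GAGAGAG in 8.62% and 3.66% (adjusted exact p = 7.34e-05 for each). The su(Hw) core went the other way, with 10.6% at promoters and 16.5% at distal peaks (adjusted exact p = 0.00220), as did A runs, with 16.0% and 22.3% (adjusted p = 0.00325). Of the 22 su(Hw) sites 20 were distal, and the difference from promoters was not called, with an interval of -1.62 to 0.16 points. Thresholded peaks had a DRE in 174 of 2637 promoter and 21 of 3636 distal windows, and Motif 1 in 101 and 7. The other motifs named here differed in the same direction in thresholded peaks, where this split was not tested.

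Each location was also set against its own paired windows, with the sides drawn anew. The paired counts therefore do not add up to those given above for all shared weak peaks. For the DRE, 2 promoter and 2 distal paired windows had a match, against 10 in the earlier draw. At promoters 6 of 16 motifs passed, all of them higher at the summits. CGATA was found in 32.5% against 19.4% (two-sided exact McNemar test, adjusted p = 2.95e-05), the DRE in 3.67% against 0.367% (adjusted p = 0.000969) and GAGAGAG in 8.62% against 3.49% (adjusted p = 0.00403). The TATA box, Motif 1 and Motif 6 passed as well (adjusted exact p = 0.00747, 0.0109 and 0.0313). Promoter summits lie within 500 bp of a start by definition, and their paired windows are centred 1000 bp away. No control at a like distance from a start was used, so the part of promoter sequence as such in these calls was not tested. At distal peaks 3 of 16 passed: the su(Hw) core with 16.5% against 11.6% (adjusted exact p = 0.000395), A runs with 22.3% against 14.6% (adjusted p = 2.78e-07) and, lower at the summits, the Pho core with 9.34% against 14.7% (adjusted p = 2.77e-05). The full su(Hw) site was in 1.26% against 0.505% of distal windows (adjusted exact p = 0.0906).

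Among distal peaks alone, the thresholded list still had more su(Hw) sites, at 4.18% against 1.26% (two-sided Fisher exact test, adjusted p = 8.88e-08), more CTCF cores, at 1.71% against 0.568%, and more GAGAGAG, at 5.94% against 3.66% (adjusted p = 0.00342 for each). The DRE did not pass there, at 0.379% against 0.578% (difference of -0.20 points with an interval of -0.57 to 0.29). Among promoter peaks, the shared weak ones had a DRE in 3.67%, a difference of -2.93 points from thresholded ones, but no motif passed after adjustment (Fisher exact test, lowest adjusted p = 0.119), while 3 of 16 had an unadjusted p under 0.05.

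**Figure D5:**
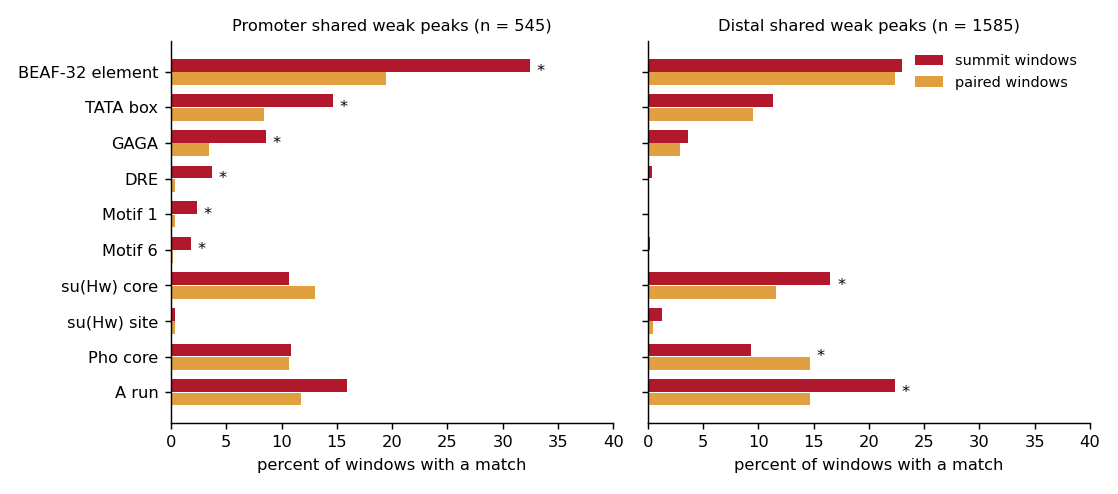
Percent of windows with a match (horizontal axes, from 0) at the summits and in the paired windows of the 545 promoter and 1585 distal shared weak peaks, for 10 of the 16 motifs. Asterisks mark an adjusted p under 0.05 in the exact McNemar test: CGATA (BEAF-32 element) reaches 32.5% against 19.4% at promoters, and the su(Hw) core 16.5% against 11.6% at distal peaks.

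A shared weak peak lay within 500 bp of a start of 548 of 13945 protein-coding genes on the arms, which is 3.93%. A thresholded peak did so for 2613 genes, or 18.7%. Of the 548 genes, 410 had no thresholded promoter peak and 138 had one as well. Gene lists are described by these counts only, beside the 3.93%, and a share near it is no result about a list. An unshared weak promoter peak, with neither of the other kinds, was found at 586 genes. The share of all genes with an unshared weak promoter peak was not computed. Counts of unshared peaks in a list therefore cannot be called high or low. Overlaps of several starts count 1 peak for more than 1 gene at 71 of the promoter peaks.

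Genes of developmental signalling are given first. In the list of Hippo, Wnt, Dpp and Hedgehog genes 6 of 42, or 14.3%, had a shared weak promoter peak, against 3.93% of all genes. An unshared weak promoter peak was found at 5 of the 42 and a thresholded one at 13. Of the 6 genes, 4 had no thresholded promoter peak. These were ptc, the Hedgehog receptor, with pooled, replicate 3 and replicate 4 signals of 108.1, 74.0 and 40.1; Apc, a part of the complex that destroys beta-catenin, with 106.3, 52.6 and 62.2; ft, an atypical cadherin upstream of Hippo signalling, with 101.0, 76.3 and 65.2; and fj, a Golgi kinase of the Fat pathway, with 96.3, 62.6 and 33.6. Both replicates were above their bounds at each, by the choice of the peaks.

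In the list of EGFR, Notch and insulin genes 5 of 31, or 16.1%, had one, of which Thor, H and rl had no thresholded promoter peak. An unshared weak promoter peak was found at 2 of the 31 and a thresholded one at 13. Thor encodes the translation inhibitor 4E-BP, and its peak had 105.1 in the pooled list, 61.4 in replicate 3 and 60.2 in replicate 4. H, the Notch antagonist Hairless, had 99.7, 69.9 and 51.5. The MAP kinase gene rl had 68.5, 58.5 and 38.2, near the lower end of the range. The peaks of pnt and aop, ETS factors of the same pathway, came beside thresholded promoter peaks.

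Among 12 Hox genes Scr and pb had a shared weak promoter peak, and only 1 of the 12 had a thresholded one. The peak of Scr had 94.8, 47.3 and 58.2 in the pooled list and replicates 3 and 4, and that of pb 81.1, 46.5 and 42.3. Of 35 Polycomb and trithorax genes 2, or 5.71%, had one, near the 3.93% of all genes. Pc itself, the chromobox subunit of the Polycomb complex, had 107.6, 57.4 and 74.8. Of 31 imaginal disc selectors 2, or 6.45%, had one. They were exd and toy, a Pax6 gene, with pooled signals of 104.6 and 76.5, while 6 of the 31 had an unshared weak promoter peak.

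The heat shock list had 5 of 30 genes with a shared weak promoter peak, but through 3 peaks, and 0 with an unshared weak one. A single summit served CG4456, Hsp22 and Hsp67Bc in the small heat shock cluster on 3L, with 99.0 in the pooled list and 78.3 and 37.01 in replicates 3 and 4, and Hsp22 also had a thresholded promoter peak. Hsp67Ba, in the same cluster, had 110.8, 71.5 and 49.6. The third belonged to Hsc70-3, the chaperone of the endoplasmic reticulum, which had a thresholded peak too.

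Ecdysone genes, which drive the approach to metamorphosis at this stage, mostly had thresholded promoter peaks: 17 of 28 did. A shared weak one was found at 2, or 7.14%, against 3.93% of all genes. ImpE2, an ecdysone-induced gene, had 85.7, 63.7 and 32.1 with no thresholded peak at its start. The other, br, the Broad-complex gene, had both kinds. Of 13 genes for the making and turnover of ecdysone, shd, which converts ecdysone to its active form, had 69.6, 58.6 and 36.2. Of 19 glue and larval serum protein genes Sgs1 and Sgs3, which encode salivary glue, had one, with pooled signals of 82.4 and 75.1.

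Of 92 ribosomal protein genes 36 had a thresholded promoter peak and 5, or 5.43%, a shared weak one, near the 3.93% of all genes. These 5 were RpLP0, RpL10, RpS5a, RpL39 and RpS28b, with pooled signals from 70.6 to 91.0 and no thresholded peak. At RpL10 the summit was 11 bp from the start and at RpLP0 24 bp. The cell cycle list had 3 of 40, or 7.50%, with Cdk2 at 108.6 and Cdk4 at 106.4. The cell death list had 1 of 19, or 5.26%, which was rpr, an activator of apoptosis, at 103.7. Other single cases were Tm1, a tropomyosin, at 104.1, Nrx-1, the synaptic adhesion protein neurexin, at 104.6, ND-B22, a subunit of complex I, at 107.8, Pdp1, a circadian transcription factor, at 86.0, Lamp1 at 94.0 and Ir48c at 75.5. Of 73 mitochondrial ribosomal protein genes mRpS11 and mRpL18, or 2.74%, had one, at 85.5 and 69.4. The tRNA synthetase AspRS had one beside a thresholded peak. These genes are named as single cases and not as a result about their lists. The single case in the list of larval cuticle genes was Cpr, which encodes a cytochrome P450 reductase and no cuticle protein.

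No gene of 4 lists had a shared weak promoter peak: 32 insulator and architectural protein genes, 32 proteasome genes, 21 antimicrobial peptide genes and 111 replication-dependent histone genes. Beside the 3.93% of all genes, 0 of 21 or of 32 genes is no result about these lists. Reads that match several places would affect the histone genes, and no source used here gives how the authors treated them. Of the insulator genes 11 had a thresholded promoter peak, among them su(Hw), BEAF-32 and Trl. At mod(mdg4) itself, on 3R at 21350846 to 21377401, there was neither kind, and the nearest shared weak summit was 38055 bp from its starts. The nearest was 5779 bp away at Cp190 and 13622 bp at CTCF. It was closer at vtd, the cohesin subunit Rad21, with 746 bp, and at Trl, with 656 bp and a pooled signal of 77.7, both in introns. Over the 32 insulator genes this distance ran from 656 to 147594 bp, and it was not compared with that of other genes. The gene lola, which encodes a BTB-domain transcription factor, held 4 shared weak summits.

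Long genes held the most. At least 1 shared weak summit lay in 1003 protein-coding genes, and at least 3 lay in 151. These 151 genes had a median length of 41.7 kb, against 2.17 kb for all. A longer gene has more room for summits, and counts per kb were not compared. The gene bun, a TSC22-family transcription factor of 91.1 kb, held 11 shared weak, 10 unshared and 17 thresholded summits. The overlapping genes br and Mur2B held 8 each, partly the same, and osp held 8 with 3 thresholded summits. EcR, the ecdysone receptor, held 7 beside 19 thresholded summits, and Eip75B, an ecdysone-induced nuclear receptor, 7 beside 26. The homeobox gene hth, of 132.0 kb, held 7 beside 6 thresholded ones.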

How the data were processed

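ChIP-seq against the GFP tag of mod(mdg4) was done in 2 replicates of 1 group. Per the README files deposited with the samples, the authors called peaks and background on each replicate and on pooled reads against a control, and made an optimal IDR thresholded list. No source used here gives the peak caller, the IDR threshold or the read depth. The signal column is the authors' deposited signal value, of unstated formula, the -log10 q is the authors' deposited significance, and the deposited summit offset is in bp. Only dm6 lists were used, and the dm3 lists were not used here.

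Pooled ranks 6295 to 12588 and replicate ranks up to 12588, by signal, define the members. A replicate match is the best-ranked overlapping peak. Genes come from Ensembl release 115 and sequence from RefSeq's Release 6. Where features overlapped, coding exons came before UTRs, noncoding exons and introns. Shares of peaks were compared by two-sided Fisher exact tests, and summit with paired windows, on a side drawn at random, by exact McNemar tests, with Benjamini-Hochberg adjustment within each family and a threshold of 0.05. Intervals on shares are exact 95% binomial, and intervals on differences are 95% intervals. They cover counting error only. Alternatives changed the replicates required, rank bounds, overlap, distances and windows. Leaving out a replicate drops only the overlap with its list, and the pooled and thresholded lists stay as they are. Python 3.11.15, NumPy 2.4.6, SciPy 1.17.1, pandas 2.3.3, statsmodels 0.14.6 and matplotlib 3.10.9 were used, and the scripts were tested on simulated data.

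The members, lists and motifs were chosen with earlier results of these data known. Named are the 10 members with the smallest sum of replicate ranks, up to 4 genes per list of 25 with a shared weak and no thresholded promoter peak, mod(mdg4) and the insulator genes, up to 3 members per called motif off arm 2R, 5 members at each bound and the 5 genes holding most summits. Further names, and the comparisons of feature classes and of arms, other than the X share, with thresholded peaks and of promoter with distal motifs, were chosen after the values were seen. Of the list entries 1133 matched a gene and 12 did not.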

Additional observations from a re-analysis of the deposited data

How the results depend on the processing

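Of the values of the 9 main results under their alternatives, 60 kept direction and call or, for counts, stayed within 1.5 times, while 12 changed sign, 7 lost and 2 gained a call and 10 counts moved further. The differences in promoter share and in the share near thresholded peaks between shared and unshared weak peaks were not stable. The promoter difference, 3.67 points, became -0.0735 in the upper part of the rank range, 2.12 with 50% reciprocal overlap and 0.22 with summits within 100 bp, and ranged from -2.16 to 8.25 with 1 replicate left out. It kept its call in the lower part, at 4.54, among peaks that overlap no other, at 2.83, and at promoter distances of 250 and 1000 bp, at 2.76 and 3.37. The difference within 5 kb of a thresholded peak, 3.18 points, became -0.30 and 4.70 in the upper and lower parts of the range, 1.497 with 50% overlap, -1.32 with summits within 100 bp, 2.71 among peaks that overlap no other, 2.01 at 10 kb, and -1.27 to 6.99 with 1 replicate left out. The X differences ranged from -2.74 to 2.08 and from -0.0277 to 1.67 points with 1 replicate left out. The first turned to 0.196 with summits within 100 bp, and the second to -5.24 with the strictest replicate bound, -1.499 in the lower part, -0.789 among peaks that overlap no other and -0.0656 against the weaker thresholded peaks. With the strictest replicate bound, which leaves 59 peaks, the promoter difference from thresholded peaks was -1.36 points, 2 feature classes differed from unshared peaks in place of 0, and 0 motifs passed against paired windows or thresholded peaks. There the su(Hw) site difference from paired windows was 0 and 4 differences from thresholded peaks turned sign: CTCF core 0.15, Motif 1 3.36, GAGA 1.09 and AP-1 -0.58 points. The number of motifs passing against paired windows, 6, was 3 in the upper part, 0 in the lower part and 3 at distal peaks, and rose to 9 without either replicate, 8 with the control 2000 bp away and 7 in windows of 150 bp. Against thresholded peaks, 8 became 0 in the lower part, 4 against the weaker thresholded peaks, 3 in windows of 50 bp and 4 at distal peaks. Fewer peaks were tested in the parts, the strictest bound and the distal peaks, and other causes were not tested. The 2 alternatives on summits and on overlap with other peaks were added after the values were seen. No paired analysis was possible because there is 1 group. The depth is unknown, so no limit from it can be given.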
